A study of Mus musculus with 9 samples.

Results

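The genes described here encode interleukins and interleukin receptors, and are all those whose symbol in the array's annotation is Il followed by a number, without Il7, Il7r and Il2rg. The annotation held 75 such symbols, of which 73 had a probe set that names no other gene. Leaving out Il7 and Il7r gave 71 genes among the 18193 genes measured. They comprised 31 ligands, 33 receptor chains, 5 inhibitors or decoys, the enzyme gene Il4i1 and the antisense transcript Il1bos. The decoy Il13ra2 was counted among the receptor chains. Each gene was read on its brightest single-gene probe set, and no gene was removed for low signal. The annotation held no Il2rg, and Il1rl1 and Il22 were not analysed here.

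Interleukins are secreted cytokines by which leukocytes and the cells of the vessel wall signal to each other. Most act through paired receptor chains that switch on JAK kinases and STAT transcription factors, while the interleukin-1 and interleukin-17 families use adaptor proteins that activate NF-kappaB. In the atherosclerotic artery, macrophages, smooth muscle, endothelium and lymphocytes make or sense them, and interleukin-1 beta is among the best studied drivers of lesion inflammation.

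Expression was measured in aortas of female APOE-/- mice on a C57BL/6 background, which lack apolipoprotein E and develop atherosclerosis; the labels give their age as 8 weeks, and the diet then ran for 30 weeks with 0.2% cholesterol and 10% coconut oil. The first group received HDAd-gE3, a helper-dependent adenovirus that expresses human apolipoprotein E3. The second received HDAd-0, the empty vector, and the third received phosphate-buffered saline (PBS). All were injected in the tail vein and killed 10 days later. One array measured a pool of 3 aortas, dissected between sinus and arch. There were 3 arrays in each group (replicates 2, 3 and 4 for HDAd-gE3, 3, 4 and 5 for HDAd-0, and 1, 3 and 4 for PBS). All mice lacked Apoe and ate the same diet, so no healthy artery is in the comparison. Whole tissue was measured, so fewer cells of a type and less RNA per cell cannot be told apart.

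Signals are RMA values on the log2 scale. They ran from 1.98 to 14.7, array medians lay between 6.67 and 6.77, and the lowest correlation between arrays was 0.991. None of the 5 smooth muscle, 7 macrophage, 6 endothelial or 5 fibroblast marker genes measured lay among the dimmest 25% of genes by mean signal. Several marker lists lay at different levels in the groups. The mean of 6 neutrophil markers was 10.41, 10.52 and 12.01 on the HDAd-gE3 arrays, 9.81, 9.30 and 8.94 on the HDAd-0 arrays, and 9.62, 9.52 and 9.33 on the PBS arrays. The means of 6 endothelial markers spanned 10.55 to 10.61 with HDAd-gE3, 10.80 to 10.96 with HDAd-0 and 10.37 to 10.48 with PBS. Those of 7 macrophage markers spanned 12.20 to 12.23, 12.37 to 12.49 and 12.30 to 12.35 in the same groups. Between HDAd-0 and PBS, Aif1 differed by 0.47 and the other macrophage markers by only -0.04 to 0.08. The 6 mast cell markers averaged 7.44 to 7.65, 7.77 to 8.01 and 7.49 to 7.76, and 4 liver markers 8.43 to 9.48, 9.01 to 10.77 and 7.80 to 8.26. Lists of other tissues followed no one order: 5 cardiac muscle markers averaged 12.93 to 13.73, 12.24 to 13.04 and 13.38 to 13.43, 5 skeletal muscle markers 5.73 to 6.73, 6.495 to 8.01 and 6.66 to 6.87, 3 erythroid markers 8.98 to 9.26, 8.68 to 9.05 and 8.05 to 8.29, and 3 mesothelial markers 8.35 to 8.80, 8.67 to 9.25 and 8.20 to 8.53. The 3′ minus 5′ signal of the control probe sets, a sign of RNA quality, was 0.722, 0.673 and 0.809 on the HDAd-gE3 arrays, 0.957, 1.08 and 0.760 on the HDAd-0 arrays, and 0.785, 0.896 and 0.917 on the PBS arrays.

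Brightness differs between probe sets for reasons other than transcript number, so the signals of different genes are not ranked here. When all genes were split by mean signal into classes of 25% each, 32 of the 71 lay in the dimmest class (up to 5.43), 22 in the second, 10 in the third and 7 in the brightest (above 10.55). Of the 31 ligands 20 lay in the dimmest class, as did 8 of the 33 receptor chains. The dim ligands include T helper cytokines: Il4, Il5, Il13, Il17a, Il21 and Il2 averaged between 3.32 and 3.89 in every group. At such signals a missing change is no measurement of the transcript. The 10 members described for the signal of their probe sets are, in alphabetical order, Il10rb, Il13ra1, Il17ra, Il18bp, Il1r1, Il1rn, Il33, Il4ra, Il6ra and Il6st.

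No member passed an adjusted p of 0.05 in any of the 3 comparisons, where 0.0055%, 0.066% and 0.126% of all genes passed (limma with Benjamini-Hochberg adjustment over 18193 genes). The smallest adjusted p of a member was 0.191 for HDAd-gE3 against HDAd-0, 0.128 for HDAd-0 against PBS and 0.0873 for HDAd-gE3 against PBS. At an unadjusted p under 0.05 the members numbered 14, 14 and 5 of 71, against 12.9%, 12.9% and 13.2% of all genes. What follows therefore gives signals and differences with their errors, none of which passed the threshold over all genes in this fit. The plot of all differences shows this for each gene.

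**Figure D1:**
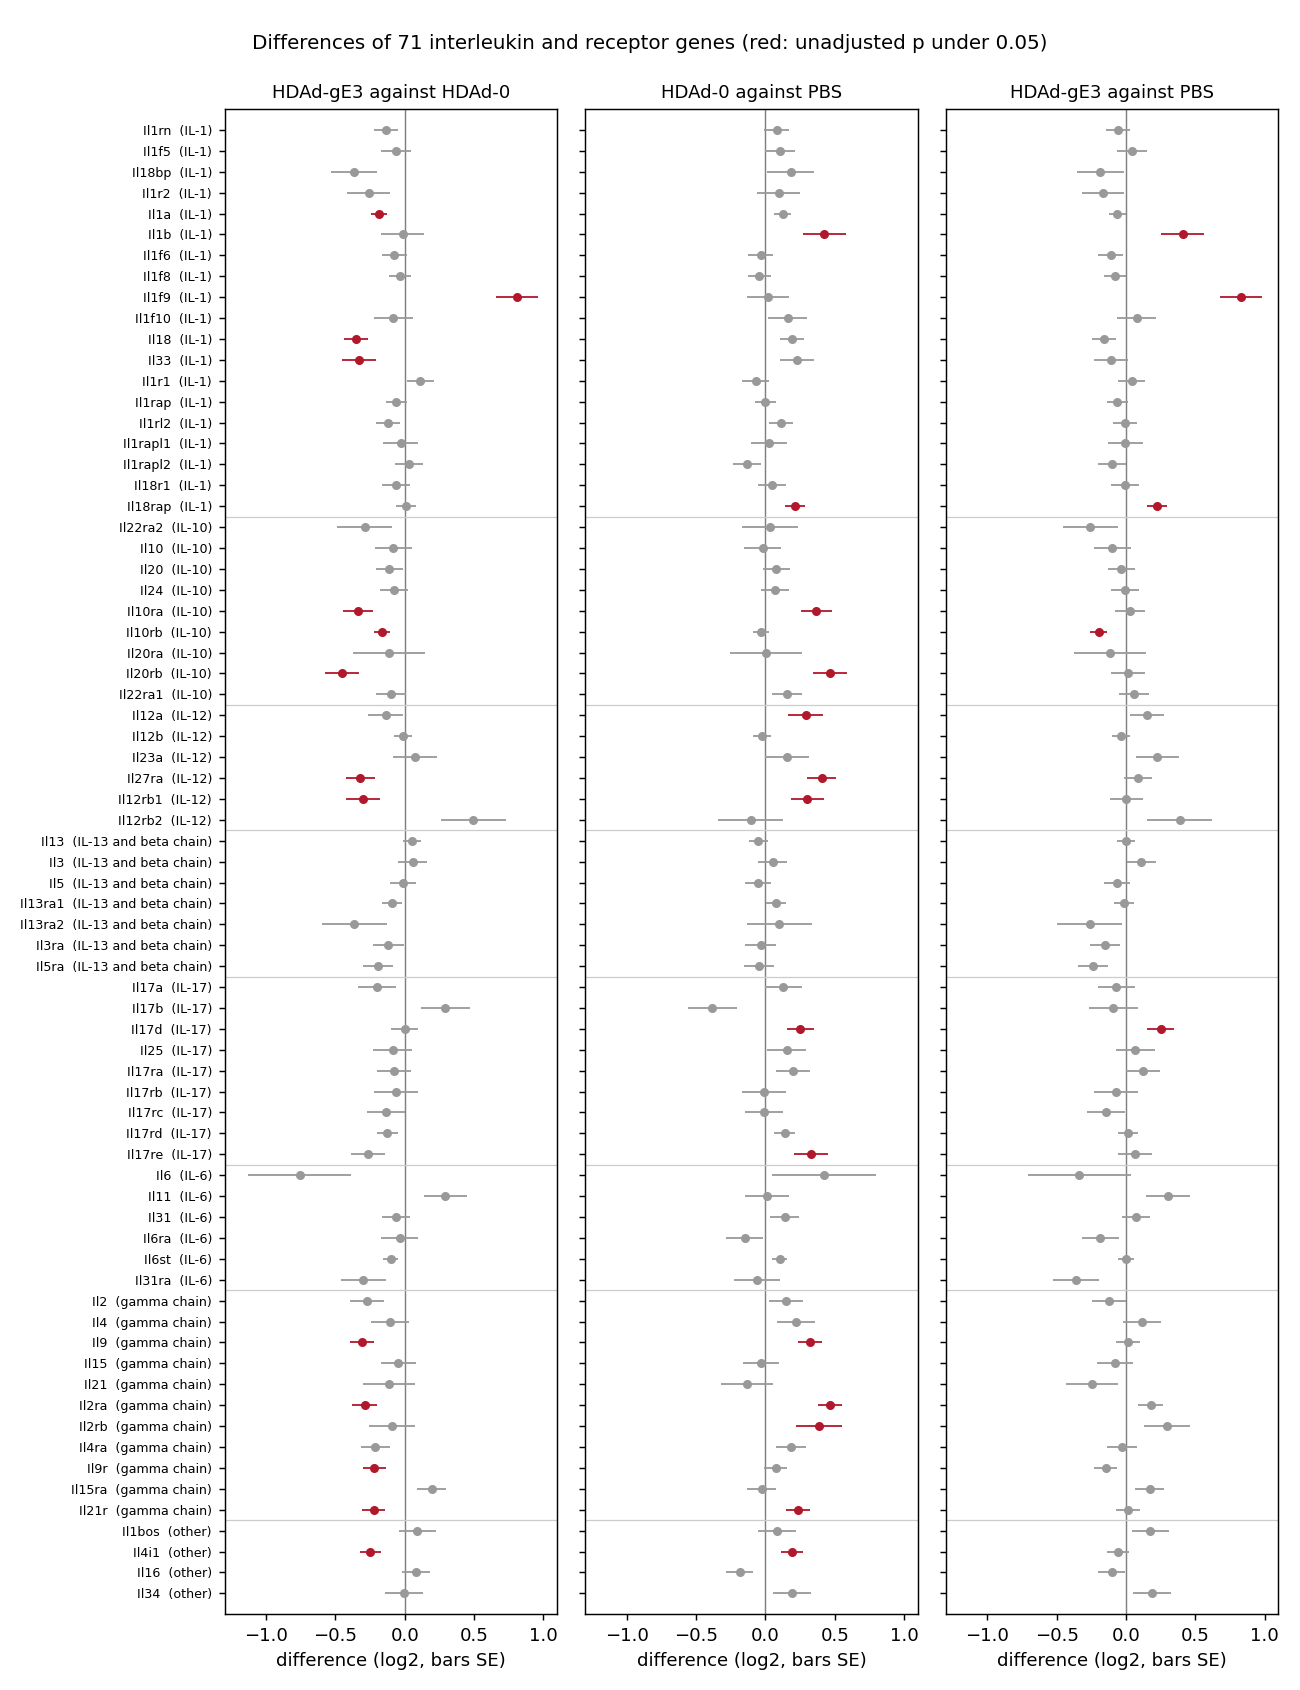
Difference of each of the 71 genes in the 3 comparisons (log2, first named group minus the second, bars SE), ordered by cytokine family. "Gamma chain" stands for the cytokines that share the receptor chain encoded by Il2rg. Red marks the 14, 14 and 5 genes with an unadjusted p under 0.05; most red points lie left of 0 in the left panel and all lie right of 0 in the middle one.

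The interleukin-1 family holds the member with the smallest unadjusted p of the 71 in each comparison with HDAd-gE3. Il1f9 encodes interleukin-36 gamma, an epithelial and myeloid cytokine that signals through the receptor chain Il1rl2. It read 5.66, 6.15 and 5.70 on the HDAd-gE3 arrays, 5.00, 5.05 and 5.04 on the HDAd-0 arrays, and 4.87, 5.29 and 4.87 on the PBS arrays. All HDAd-gE3 arrays lay above the 6 others, and the other groups overlapped. The difference was 0.81 ± 0.152 (SE) against HDAd-0, 1.75-fold, and 0.83 ± 0.152 against PBS, 1.78-fold (limma, adjusted p = 0.191 and 0.0873). Its mean lay in the dimmest class of genes. Leaving out any 1 array kept the difference from PBS between 0.673 and 0.97. Down-weighting discordant arrays gave 0.95 with an adjusted p of 0.0189. The neutrophil marker mean was also higher on all 3 HDAd-gE3 arrays than on the 6 others, and the part of these cells in the result was not tested. Its receptor chain Il1rl2 read 8.79 ± 0.07, 8.91 ± 0.13 and 8.80 ± 0.12 (SD, n = 3) with HDAd-gE3, HDAd-0 and PBS.

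Promoter sequence is shown for 4 members: those with the smallest unadjusted p in each direction of a comparison where RefSeq's table had an entry (Il1f9, Il18 and Il2ra), and Il1b, whose arrays lay above PBS with both vectors. Each runs 5′ to 3′ on the gene's strand from 250 bases before the start site to 50 after it (RefSeq, build GRCm38.p6). Il1f9 lies on the plus strand at chr2:24186226-24186525, Il1b on the minus strand at chr2:129371090-129371389, Il2ra on the plus strand at chr2:11642542-11642841 and Il18 on the plus strand at chr9:50554450-50554749. Capitals mark matches, on either strand, to TATAAA, to the AP-1 motif TGANTCA, to the STAT motif TTCNNNGAA and to the kappaB consensus.
Il1f9: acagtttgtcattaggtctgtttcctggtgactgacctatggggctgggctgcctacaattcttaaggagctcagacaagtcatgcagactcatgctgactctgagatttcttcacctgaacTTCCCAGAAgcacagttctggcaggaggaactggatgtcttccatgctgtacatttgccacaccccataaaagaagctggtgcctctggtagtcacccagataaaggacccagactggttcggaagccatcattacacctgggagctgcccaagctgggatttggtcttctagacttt
Il1b: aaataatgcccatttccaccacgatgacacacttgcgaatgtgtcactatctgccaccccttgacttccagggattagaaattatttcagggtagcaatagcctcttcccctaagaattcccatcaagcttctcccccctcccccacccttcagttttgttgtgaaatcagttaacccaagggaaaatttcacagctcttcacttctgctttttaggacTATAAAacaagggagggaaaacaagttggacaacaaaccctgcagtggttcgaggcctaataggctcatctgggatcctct
Il2ra: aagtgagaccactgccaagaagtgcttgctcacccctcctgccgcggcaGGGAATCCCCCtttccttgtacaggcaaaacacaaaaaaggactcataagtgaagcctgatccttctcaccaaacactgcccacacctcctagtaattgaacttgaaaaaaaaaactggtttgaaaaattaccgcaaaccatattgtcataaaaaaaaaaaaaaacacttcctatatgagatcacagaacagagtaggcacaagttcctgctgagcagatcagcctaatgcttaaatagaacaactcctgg
Il18: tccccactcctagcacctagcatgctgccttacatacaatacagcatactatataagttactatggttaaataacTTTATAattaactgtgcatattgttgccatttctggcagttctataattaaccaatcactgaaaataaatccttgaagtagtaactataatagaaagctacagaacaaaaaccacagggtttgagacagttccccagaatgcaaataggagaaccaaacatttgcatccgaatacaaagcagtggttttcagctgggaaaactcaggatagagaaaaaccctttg
Counted from the start site, the match in Il1f9 is to the STAT motif, at positions -128 to -120. Il1b matched TATAAA at -31 to -26. In Il2ra overlapping kappaB matches spanned -201 to -191, and Il18 matched TATAAA on the other strand at -175 to -170. Among 32841 promoters of the same length, 13.6% held TATAAA, 7.81% the AP-1 motif, 8.3% the STAT motif and 4.51% the kappaB consensus. Over the 56 members with a promoter in the table, 9, 12, 7 and 4 held them, counting the first entry of each. These matches describe letters only.

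Il1b encodes interleukin-1 beta, the inflammasome product of macrophages. Its signal was 9.12, 9.67 and 9.38 with HDAd-gE3, 9.13, 9.59 and 9.49 with HDAd-0, and 8.90, 9.05 and 8.98 with PBS. Every array of either vector group lay above every PBS array, while the vector groups covered the same range. Against PBS the difference was 0.41 ± 0.155 with HDAd-gE3 and 0.43 ± 0.155 with HDAd-0, near 1.33-fold and 1.34-fold (limma, adjusted p = 0.319 and 0.315). These comparisons share the PBS arrays. Between HDAd-gE3 and HDAd-0 it was -0.01 ± 0.155. Neutrophils carry Il1b as well, and the part of their marker genes (10.41 to 12.01 with HDAd-gE3, 8.94 to 9.81 with HDAd-0 and 9.33 to 9.62 with PBS) in the result was not tested. The only other member with both vector groups wholly above PBS was Il18rap, the accessory chain of the interleukin-18 receptor. It read 7.02, 7.14 and 7.09 with HDAd-gE3, 7.05, 7.15 and 7.01 with HDAd-0, and 6.80, 6.80 and 6.98 with PBS, differing from PBS by 0.22 ± 0.0723 and 0.21 ± 0.0723 (limma, adjusted p = 0.263 and 0.288). Such a position was held by 2.82% of members and 4.57% of all genes. On a dimmer probe set of Il18rap the vector groups overlapped PBS. It differed from PBS by 0.40 ± 0.206 with HDAd-gE3 and by 0.14 ± 0.206 with HDAd-0.

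Il18 and Il1a, which encode further activating ligands, stood lowest with HDAd-gE3. Interleukin-18, a macrophage product that elicits interferon gamma, had an Il18 signal of 9.34, 9.33 and 9.20 with HDAd-gE3, 9.68, 9.49 and 9.76 with HDAd-0, and 9.36, 9.53 and 9.46 with PBS. All HDAd-gE3 arrays lay below the 6 others, by a narrow margin against PBS. The difference was -0.35 ± 0.0863 against HDAd-0, 1.28-fold lower, and -0.16 ± 0.0863 against PBS (limma, adjusted p = 0.207 and 0.465). Il1a, the interleukin-1 alpha gene, read 7.66, 7.52 and 7.66 with HDAd-gE3, 7.85, 7.78 and 7.77 with HDAd-0, and 7.68 on each PBS array. The 3 groups did not overlap, with HDAd-gE3 lowest and HDAd-0 highest, but HDAd-gE3 and PBS nearly touched. Its difference with HDAd-gE3 was -0.19 ± 0.0592 against HDAd-0 and -0.06 ± 0.0592 against PBS (limma, adjusted p = 0.292 and 0.703). The identical PBS values come from the deposited table, and the pooled error of the fit does not rest on their spread of 0 alone.

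Il33, an alarmin of endothelial and stromal cells, read 11.31, 11.42 and 11.51 with HDAd-gE3, 11.52, 12.03 and 11.69 with HDAd-0, and 11.56, 11.46 and 11.55 with PBS. HDAd-gE3 lay below HDAd-0 on every array, although 2 arrays nearly touched, and overlapped PBS. Against HDAd-0 the difference was -0.33 ± 0.122 (limma, adjusted p = 0.336), and without HDAd-0 replicate 4 it was -0.189. The endothelial marker mean was also highest with HDAd-0 but lowest with PBS, and the part of these cells in the result was not tested.

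None of the inhibitors had an unadjusted p under 0.05. Il18bp, the secreted binding protein that neutralises interleukin-18, read 10.58, 10.64 and 10.42 with HDAd-gE3, 10.88, 10.57 and 11.29 with HDAd-0, and 10.61, 10.67 and 10.90 with PBS. The HDAd-0 arrays spread widely, and the difference of HDAd-gE3 from them was -0.37 ± 0.167 (limma, adjusted p = 0.401), or -0.178 without HDAd-0 replicate 5. Il1rn, the receptor antagonist, averaged 11.21 ± 0.16, 11.35 ± 0.06 and 11.27 ± 0.09 (SD, n = 3) with HDAd-gE3, HDAd-0 and PBS. Il1r2, the decoy receptor, averaged 6.91 ± 0.10, 7.17 ± 0.34 and 7.07 ± 0.09, with 7.55 on HDAd-0 replicate 4. The signalling receptor Il1r1 averaged 11.31 ± 0.16, 11.19 ± 0.11 and 11.26 ± 0.09, its partner Il1rap 7.97 ± 0.10, 8.03 ± 0.04 and 8.04 ± 0.11, and Il18r1 7.33 ± 0.16, 7.39 ± 0.11 and 7.34 ± 0.11. Of the 19 members of the family, 15 had a lower mean with HDAd-gE3 than with HDAd-0 (78.9%, background 61.7%) and 14 a higher mean with HDAd-0 than with PBS (73.7%, background 57.6%). In RefSeq's gene order Il1f8, Il1f9, Il1f6, Il1f5, Il1f10 and Il1rn are neighbours on chromosome 2. Of these, Il1f9 was the one with an unadjusted p under 0.05, while Il1f5, Il1f6, Il1f8 and Il1f10 averaged 3.00 to 3.61 in every group.

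**Figure D2:**
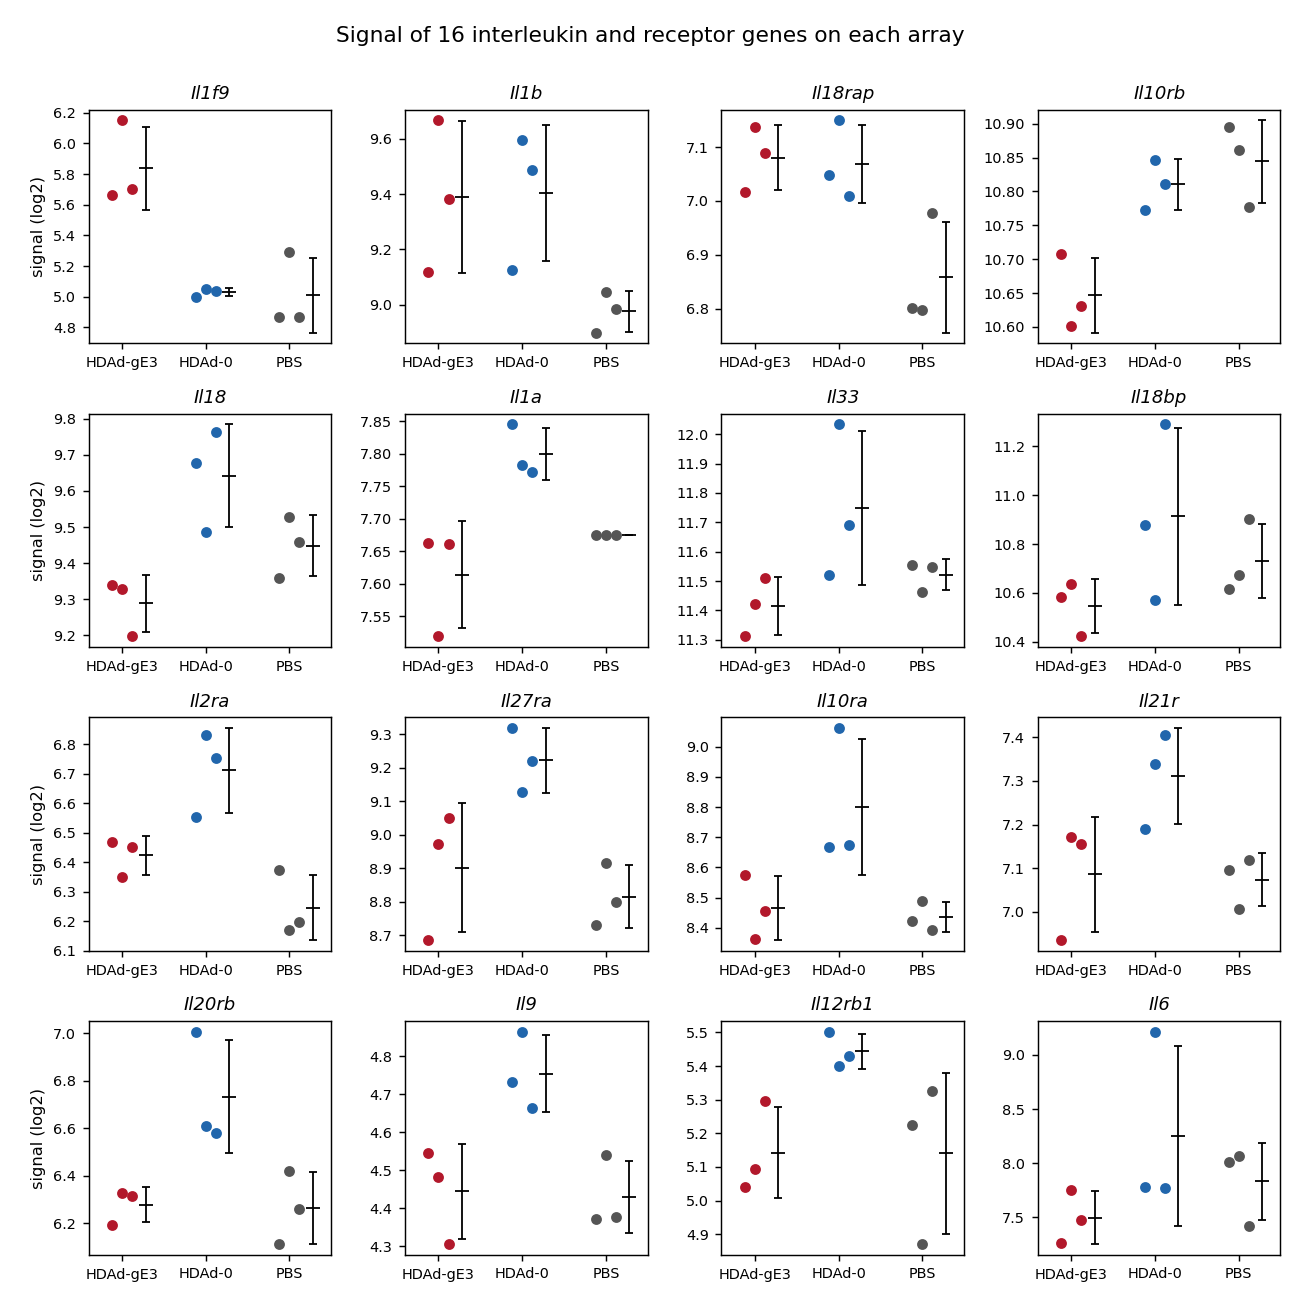
Signal (log2) of 16 genes on the 9 arrays. Points are arrays, and the black mark and bar beside them give the mean and SD of 3; each panel has its own axis. Il1f9 stands highest with HDAd-gE3, Il1b and Il18rap stand lowest with PBS, and most genes of the lower panels stand highest with HDAd-0.

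Il2ra encodes CD25, the chain that gives the interleukin-2 receptor its high affinity on regulatory and activated T cells. It read 6.47, 6.35 and 6.45 with HDAd-gE3, 6.55, 6.83 and 6.75 with HDAd-0, and 6.37, 6.17 and 6.20 with PBS. All HDAd-0 arrays lay above the 6 others. The difference was 0.47 ± 0.0894 for HDAd-0 against PBS, 1.38-fold, and -0.29 ± 0.0894 for HDAd-gE3 against HDAd-0 (limma, adjusted p = 0.128 and 0.286). A second, dimmer probe set differed by 0.27 ± 0.102 and -0.30 ± 0.102 in these comparisons. Il2rb, the chain shared with the interleukin-15 receptor, averaged 5.97 ± 0.21 with HDAd-0 and 5.58 ± 0.17 with PBS (SD, n = 3), a difference of 0.39 ± 0.165. Its mean with HDAd-gE3 was 5.88 ± 0.29. A dimmer probe set of Il2rb differed by 0.07 ± 0.144 between HDAd-0 and PBS.

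Il21r, the interleukin-21 receptor of T and B cells, read 6.93, 7.17 and 7.15 with HDAd-gE3, 7.19, 7.34 and 7.40 with HDAd-0, and 7.10, 7.01 and 7.12 with PBS. HDAd-0 again lay above all others, with the nearest HDAd-gE3 array close below. It differed by 0.24 ± 0.0858 between HDAd-0 and PBS and by -0.22 ± 0.0858 between HDAd-gE3 and HDAd-0. Il9, a cytokine of T helper and innate lymphoid cells, showed the same order at a low signal, with means of 4.44 ± 0.12, 4.75 ± 0.10 and 4.43 ± 0.09 in HDAd-gE3, HDAd-0 and PBS (SD, n = 3). Its receptor Il9r averaged 3.30 ± 0.10, 3.52 ± 0.14 and 3.44 ± 0.01, with every HDAd-gE3 array below the 6 others. Il9r lay in the dimmest class, and its highest HDAd-gE3 array (3.41) was close to the nearest other array (3.44). HDAd-0 replicate 3 and PBS replicates 1 and 3 held 1 identical value. The T cell marker list had means of 7.17 to 7.90, 7.43 to 8.04 and 7.44 to 7.81 in these groups, which overlap. Of its 6 measured markers only Cd4 had all HDAd-0 arrays above the 6 others. Cd4 differed by -0.54 ± 0.139 for HDAd-gE3 against HDAd-0 and by 0.26 ± 0.139 for HDAd-0 against PBS. The other markers differed by -0.19 to 0.07 and by -0.54 to 0.17 in these comparisons. The part of T cells in these results was not tested.

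Il15 did not separate the groups, at 8.68 ± 0.24, 8.72 ± 0.17 and 8.75 ± 0.07 with HDAd-gE3, HDAd-0 and PBS (SD, n = 3). The presenting chain Il15ra read 8.75, 8.74 and 8.35 with HDAd-gE3 against 8.44, 8.44 and 8.38 with HDAd-0, so that HDAd-gE3 replicate 4 stood apart from its group. Il4ra, the chain shared by the receptors for interleukin-4 and interleukin-13, averaged 10.15 ± 0.13, 10.36 ± 0.20 and 10.17 ± 0.06 with HDAd-gE3, HDAd-0 and PBS. Its dimmest probe set read 5.05, 5.12 and 5.07 with HDAd-gE3, 5.62, 5.57 and 5.51 with HDAd-0, and 5.30, 5.33 and 5.39 with PBS. These groups were well apart, with a difference of -0.49 ± 0.063 for HDAd-gE3 against HDAd-0 (limma fitted to all probe sets, adjusted p = 0.125). The second Il4ra probe set differed by -0.05 ± 0.106 in this comparison, so the probe sets of the gene disagree in size.

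Il13ra1, which pairs with Il4ra in non-lymphoid cells, shows a like split. The brightest of its 5 probe sets averaged 11.06 ± 0.09, 11.15 ± 0.09 and 11.07 ± 0.05 with HDAd-gE3, HDAd-0 and PBS (SD, n = 3) and differed by -0.09 ± 0.0715 between the vectors. The third read 9.88, 9.76 and 9.81 with HDAd-gE3, 10.18, 10.28 and 10.07 with HDAd-0, and 10.26, 10.14 and 10.28 with PBS. There every HDAd-gE3 array lay below the 6 others, by -0.36 ± 0.0775 against HDAd-0 and -0.41 ± 0.0775 against PBS (adjusted p = 0.208 and 0.143 by limma fitted to all probe sets). The 2 dimmer probe sets differed by -0.32 ± 0.0836 and -0.27 ± 0.0721 from HDAd-0, and the remaining one by 0.01 ± 0.112. These probe sets were singled out after their values were seen. Il13ra2, a decoy receptor for interleukin-13, averaged 6.79 ± 0.46, 7.15 ± 0.36 and 7.05 ± 0.04, and Il3ra, the interleukin-3 receptor chain, averaged 8.88 ± 0.12, 8.99 ± 0.20 and 9.03 ± 0.09.

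The interleukin-10 family restrains or directs inflammation in leukocytes and epithelia. Il10ra, the ligand-binding chain through which interleukin-10 restrains macrophages, read 8.58, 8.36 and 8.45 with HDAd-gE3, 8.67, 9.06 and 8.68 with HDAd-0, and 8.42, 8.49 and 8.39 with PBS. HDAd-0 lay above all others, most on replicate 4. The difference was -0.34 ± 0.111 for HDAd-gE3 against HDAd-0 and 0.37 ± 0.111 for HDAd-0 against PBS (limma, adjusted p = 0.304 and 0.245), and without that array -0.206 and 0.236. On the next probe set of Il10ra these differences were -0.24 ± 0.0879 and 0.05 ± 0.0879. On its dimmest probe set they were -0.05 ± 0.0895 and 0.20 ± 0.0895. On neither did HDAd-0 lie above all others. Il10rb, the second chain, also used by interleukin-22 and the lambda interferons, read 10.71, 10.60 and 10.63 with HDAd-gE3, 10.77, 10.85 and 10.81 with HDAd-0, and 10.90, 10.86 and 10.78 with PBS. Here HDAd-gE3 lay below all others, by -0.20 ± 0.0588 against PBS (limma, adjusted p = 0.234). A dimmer probe set of Il10rb went the other way against HDAd-0, by 0.37 ± 0.23, and by 0.05 ± 0.23 against PBS. Il10 itself averaged 3.87 ± 0.16, 3.95 ± 0.25 and 3.97 ± 0.12 (SD, n = 3), in the dimmest class of genes.

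Il20rb, a chain of the receptors for interleukin-20 and interleukin-24, read 6.19, 6.33 and 6.31 with HDAd-gE3, 7.01, 6.61 and 6.58 with HDAd-0, and 6.11, 6.42 and 6.26 with PBS. HDAd-0 lay above the 6 others, with replicate 3 highest. The difference was -0.45 ± 0.124 for HDAd-gE3 against HDAd-0, 1.37-fold lower, and 0.47 ± 0.124 for HDAd-0 against PBS, 1.38-fold (limma, adjusted p = 0.245 and 0.206). Its ligands Il20 and Il24 averaged 3.22 to 3.34 and 4.69 to 4.76. All 9 members of the family had a lower mean with HDAd-gE3 than with HDAd-0, as did 61.7% of all genes (78.1% with arrays centred on their medians), with a median of -0.12 against -0.04 over all genes.

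The interleukin-12 and interleukin-6 families share helical cytokines and related receptors. Il27ra, which senses interleukin-27 on T cells and macrophages, read 8.68, 8.97 and 9.05 with HDAd-gE3, 9.32, 9.13 and 9.22 with HDAd-0, and 8.73, 8.92 and 8.80 with PBS. HDAd-0 lay above all others. It differed by 0.41 ± 0.104 between HDAd-0 and PBS, 1.33-fold, and by -0.32 ± 0.104 between HDAd-gE3 and HDAd-0 (limma, adjusted p = 0.191 and 0.297). Il12rb1, the chain common to the receptors for interleukin-12 and interleukin-23, read 5.04, 5.09 and 5.30 with HDAd-gE3, 5.50, 5.40 and 5.43 with HDAd-0, and 5.22, 4.87 and 5.33 with PBS, again with HDAd-0 on top. Il12rb1 lay in the dimmest class of genes, and its highest PBS array (5.33) was close to the lowest HDAd-0 array (5.40). Its partner Il12rb2 spread over 1.36 on the log2 scale, with 5.38 on HDAd-gE3 replicate 2 and 4.03 on HDAd-0 replicate 4. The subunit genes Il12a, Il12b and Il23a averaged 4.31 to 4.60, 5.81 to 5.85 and 3.35 to 3.57.

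Il6 had the widest range of the 71, at 1.95. This inflammatory cytokine read 7.26, 7.75 and 7.48 with HDAd-gE3, 7.78, 9.21 and 7.77 with HDAd-0, and 8.02, 8.06 and 7.42 with PBS. HDAd-0 replicate 4 stood apart from all others, while the remaining HDAd-0 arrays lay just above the highest HDAd-gE3 array. The difference of -0.76 ± 0.373 for HDAd-gE3 against HDAd-0 became -0.278 without that array, and the 0.42 ± 0.373 for HDAd-0 against PBS became -0.0575. Of the 71, 15 were highest on this array, among them Il33, Il1r2, Il2ra, Il4ra, Il10ra, Il13ra1 and Il17ra. HDAd-0 replicate 3 held as many. The share of all genes highest on each array is not given. HDAd-0 replicate 4 also had the largest 3′ minus 5′ value of the 9 arrays (1.08), whose part in this was not tested. Il6ra, the ligand-binding chain, averaged 9.46 ± 0.12, 9.49 ± 0.28 and 9.64 ± 0.09 with HDAd-gE3, HDAd-0 and PBS (SD, n = 3). Il6st encodes gp130, the signalling chain for interleukin-6 and interleukin-11, and read 13.01, 13.04 and 13.10 with HDAd-gE3, 13.12, 13.21 and 13.12 with HDAd-0, and 13.06, 13.03 and 13.06 with PBS. HDAd-0 lay above the rest, and the difference of HDAd-gE3 from it was -0.10 ± 0.0542. The groups overlapped on the dimmer probe sets of Il6st. There HDAd-gE3 differed from HDAd-0 by -0.12 ± 0.206, -0.03 ± 0.103 and -0.01 ± 0.177. HDAd-0 differed from PBS by 0.005 ± 0.206, 0.07 ± 0.103 and 0.18 ± 0.177. Il11, a profibrotic member, averaged 5.93 ± 0.26, 5.64 ± 0.11 and 5.62 ± 0.26.

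The interleukin-17 family acts on stromal and epithelial cells. Il17a averaged 3.37 ± 0.19, 3.57 ± 0.23 and 3.44 ± 0.11 with HDAd-gE3, HDAd-0 and PBS (SD, n = 3), and its receptor chain Il17ra 9.56 ± 0.10, 9.64 ± 0.24 and 9.44 ± 0.13. Il17d read 7.27, 6.99 and 7.37 with HDAd-gE3, 7.22, 7.13 and 7.29 with HDAd-0, and 7.001, 6.948 and 6.932 with PBS. It stood lowest with PBS except that HDAd-gE3 replicate 3 lay within the PBS range, and it differed from PBS by 0.25 ± 0.0976 with either vector. A dimmer probe set of Il17d differed from PBS by 0.49 ± 0.144 with HDAd-0 and by 0.17 ± 0.144 with HDAd-gE3. Between the vectors it differed by -0.32 ± 0.144, so the probe sets disagree on the HDAd-gE3 group. Il17re, the receptor chain for interleukin-17C, averaged 5.92 ± 0.08, 6.18 ± 0.25 and 5.85 ± 0.12, with 6.45 on HDAd-0 replicate 3. Of 2 secreted proteins outside these families, Il16, a CD4 ligand, averaged 8.31 ± 0.11, 8.23 ± 0.13 and 8.42 ± 0.14, and its next probe set leaned the opposite way in both comparisons with HDAd-0. Il34, the second ligand of the macrophage receptor Csf1r, averaged 5.45 ± 0.14, 5.46 ± 0.25 and 5.26 ± 0.16. The enzyme gene Il4i1 lay at 2.48 ± 0.13, 2.73 ± 0.08 and 2.54 ± 0.04, in the dimmest class.

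**Figure D3:**
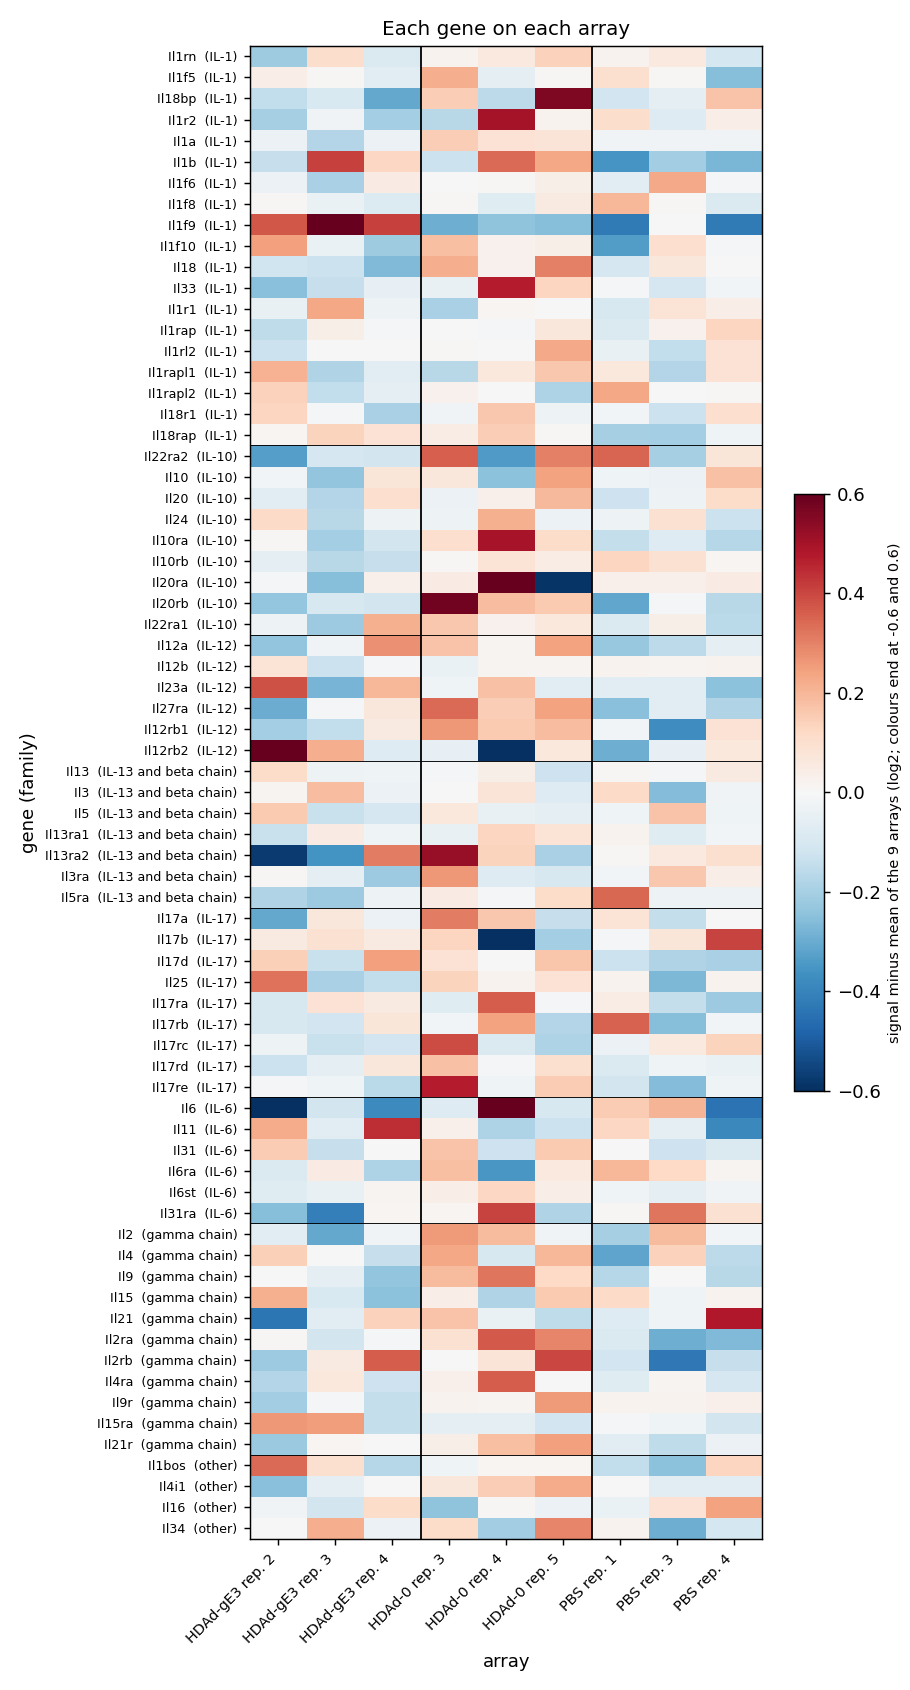
Each of the 71 genes (rows, by family) on each of the 9 arrays (columns), as signal minus the gene's mean over all arrays (log2, red above and blue below; colours end at -0.6 and 0.6). The HDAd-0 columns hold more red than the others: 50, 46 and 47 genes lay above their mean there, against 28, 21 and 26 on the HDAd-gE3 arrays and 27, 26 and 29 on the PBS arrays. The share of all genes above their mean on each array is not given. The median deviation of all genes was 0.032, 0.010 and 0.0012 with HDAd-0. It was -0.016, -0.020 and -0.0073 with HDAd-gE3 and -0.011, 0.0045 and 0.00043 with PBS. For the 71 genes these medians were 0.041, 0.026 and 0.057, then -0.034, -0.059 and -0.030, then -0.026, -0.028 and -0.015.

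Counted together, 58 of the 71 members had a lower mean with HDAd-gE3 than with HDAd-0, or 81.7% against 61.7% of all genes, and 13 a higher one (18.3%, background 38.3%), and the median difference was -0.10 against -0.04 over all genes. Of the members, 13 were lower (18.3%, background 9.4%) and 1 was higher (1.41%, background 3.46%) at an unadjusted p under 0.05. With arrays centred on their medians, 62 had a lower mean (87.3%, against 78.1% of all genes), and 20 were lower (28.2%, against 18.9% of all genes) and 1 higher by this p. When the fit also held the arrays' 3′ minus 5′ value, 9 members in all had such a p. The arrays did not overlap for 17 members lower with HDAd-gE3 (23.9%, background 12%) and for 1 higher (1.41%, background 4.25%). The lower members by this p were 8 receptors, 4 ligands and Il4i1. The 1 higher, Il1f9, became 3 without HDAd-gE3 replicate 3 or without replicate 4.

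Between HDAd-0 and PBS, 49 members had a higher mean with HDAd-0 (69%, background 57.6%) and 22 a lower one (31%, background 42.4%), with a median of 0.10 against 0.02 over all genes. At an unadjusted p under 0.05, 14 were higher (19.7%, background 8.5%) and 0 lower (background 4.39%). The arrays did not overlap for 16 members higher with HDAd-0 (22.5%, background 11.8%) and for 0 lower (background 7%). The 14 counted by p became 7 without HDAd-0 replicate 5, 8 without PBS replicate 3 and 9 without PBS replicate 4. The 0 lower became 2 without HDAd-0 replicate 3 or without PBS replicate 1. The shares of all genes without these arrays are not given, so moves of members and of all genes cannot be told apart. With arrays centred on their medians, 16 were higher (22.5%, against 10.7% of all genes) and 0 lower (against 3.08%).

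HDAd-gE3 against PBS gave shares close to or below those of all genes. There 32 members had a higher mean (45.1%, background 45.4%) and 39 a lower one (54.9%, background 54.6%), the median was -0.01 against -0.02 over all genes, and 4 were higher (5.63%, background 5.94%) and 1 lower (1.41%, background 7.27%) at an unadjusted p under 0.05. The arrays did not overlap for 3 members higher (4.23%, background 10.8%) and 4 lower (5.63%, background 13.2%). Without HDAd-gE3 replicate 4 the total by p was 9 instead of 5, with 4 lower, and the 4 higher became 2 without PBS replicate 3 or without PBS replicate 4. Without HDAd-0 replicate 4, which enters only the shared error, 3 were lower. With arrays centred on their medians the split was 3 higher (4.23%, against 3.61% of all genes) and 4 lower (5.63%, against 11%). The first 2 comparisons share the HDAd-0 arrays, so their opposite directions are not separate evidence. All 3 HDAd-0 arrays lay above the 6 others for 10 members (14.1%, background 3.92%): Il1a, Il2ra, Il6st, Il9, Il10ra, Il12rb1, Il20rb, Il21r, Il27ra and Il4i1. They lay below them for 0 (background 1.37%). These positions are those of the brightest probe sets, and Il9, Il12rb1 and Il4i1 lay in the dimmest class of genes. No further probe set of Il2ra, Il6st or Il10ra had all HDAd-0 arrays above the 6 others. The HDAd-gE3 arrays lay above all others for 1 member (background 2%) and below for 4 (5.63%, background 4.65%), and the PBS arrays above for 0 (background 2.72%).

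**Figure D4:**
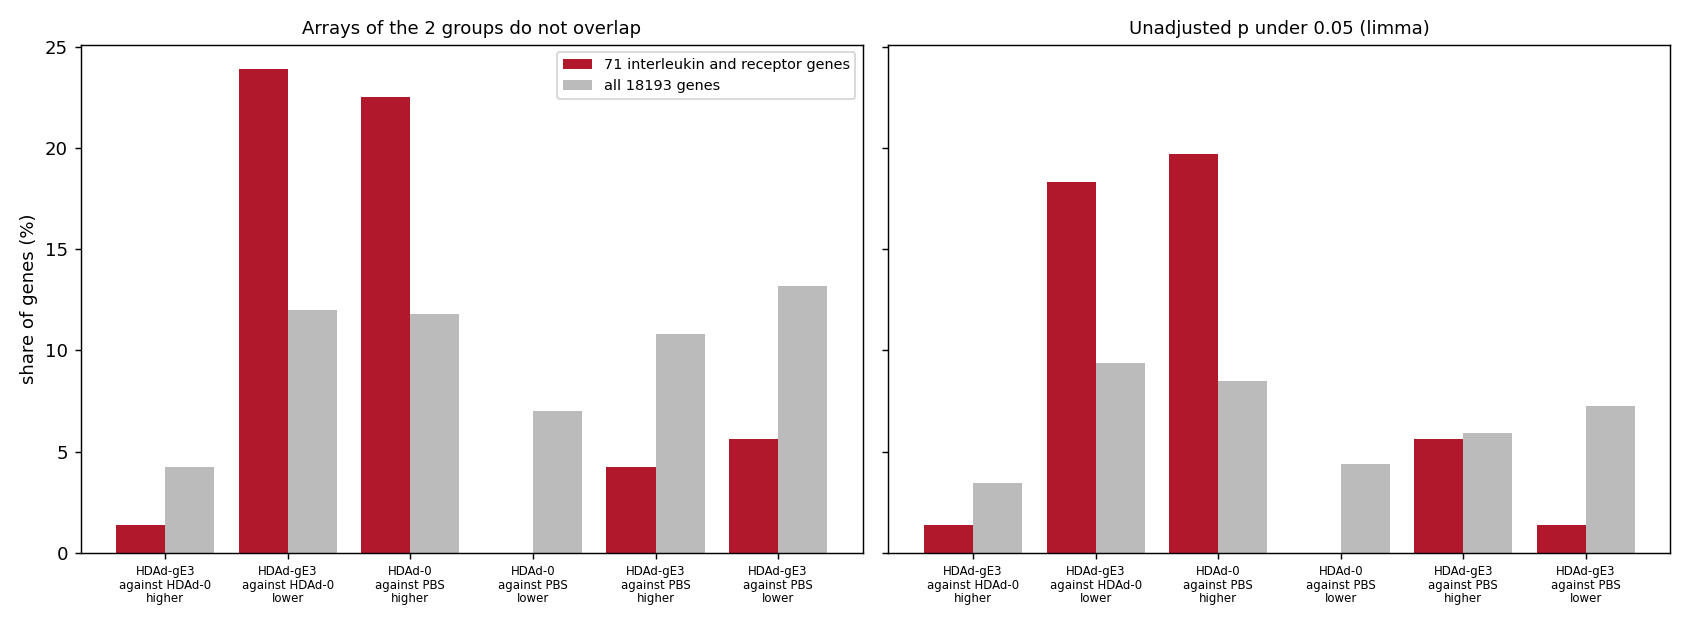
Share (%) of the 71 genes (red) and of all 18193 genes (grey) in each direction of each comparison, by arrays that do not overlap between the groups (left) and by an unadjusted p under 0.05 (right). Red exceeds grey for genes lower with HDAd-gE3 than with HDAd-0 (23.9% against 12% on the left) and higher with HDAd-0 than with PBS (22.5% against 11.8%), and in no other direction.

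Of the 71 members 25 had further probe sets, 40 in all. These had the sign of the brightest one in 29 of 40 cases for HDAd-gE3 against HDAd-0, 28 for HDAd-0 against PBS and 22 for HDAd-gE3 against PBS.

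A list of 41 signalling partners was read beside the members, of which 38 were measured. It holds JAK kinases, STATs, their SOCS inhibitors, the adaptors of the interleukin-1 receptor, inflammasome genes and related cytokines and receptors. None passed an adjusted p of 0.05 (limma). For HDAd-gE3 against HDAd-0, 13 were lower (34.2%, background 9.4%) and 1 higher (2.63%, background 3.46%) at an unadjusted p under 0.05. The median was -0.14. With arrays centred on their medians 20 were lower (52.6%) and 1 higher (2.63%), against 18.9% and 1.52% of all genes. For HDAd-0 against PBS 8 were higher (21.1%, background 8.5%) and 0 lower (background 4.39%), with a median of 0.09. For HDAd-gE3 against PBS 2 were higher (5.26%, background 5.94%) and 4 lower (10.5%, background 7.27%), with a median of -0.03. With arrays centred on their medians the 2 and 4 became 1 and 6 (2.63% and 15.8%, against 3.61% and 11% of all genes).

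Stat4, the STAT that transmits interleukin-12 in lymphocytes, averaged 6.67 ± 0.14, 7.03 ± 0.11 and 6.56 ± 0.05 in the HDAd-gE3, HDAd-0 and PBS groups (SD, n = 3). It differed by -0.36 ± 0.0855 between the vectors and by 0.47 ± 0.0855 between HDAd-0 and PBS (limma, adjusted p = 0.206 and 0.127). Jak3, the kinase bound to the chain encoded by Il2rg, was likewise highest with HDAd-0, at 7.07 ± 0.14, 7.47 ± 0.18 and 7.13 ± 0.06. The inhibitors of interleukin-1 receptor signalling Irak3 and Sigirr were also highest with HDAd-0: Irak3 averaged 9.77 ± 0.05, 10.08 ± 0.13 and 9.87 ± 0.02, and Sigirr 7.64 ± 0.17, 8.01 ± 0.15 and 7.67 ± 0.13. Csf2rb2, the mouse interleukin-3 receptor beta chain, averaged 11.50 ± 0.05, 11.81 ± 0.04 and 11.70 ± 0.08, a difference of -0.32 ± 0.0624 for HDAd-gE3 against HDAd-0 (limma, adjusted p = 0.191). Cish, a STAT5-induced inhibitor, was the 1 partner higher with HDAd-gE3 than with HDAd-0 at an unadjusted p under 0.05, by 0.57 ± 0.204, although its arrays overlapped. Jak1, used by most of these receptors, averaged 10.77 ± 0.05, 10.70 ± 0.07 and 10.54 ± 0.03, and differed from PBS by 0.23 ± 0.0591 with HDAd-gE3 (limma, adjusted p = 0.198).

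Both Il7 and Il7r, which the members leave out, had all HDAd-gE3 arrays below the 6 others, as did 4.65% of all genes. Il7 read 7.40, 7.45 and 7.54 with HDAd-gE3, 7.66, 7.87 and 7.57 with HDAd-0, and 7.79, 7.56 and 7.61 with PBS. The margin to the nearest other array was narrow. Il7 differed by -0.24 ± 0.0936 from HDAd-0 and by -0.19 ± 0.0936 from PBS (limma, adjusted p = 0.362 and 0.429). Il7r, the interleukin-7 receptor chain of lymphocytes, read 11.85, 11.92 and 11.85 with HDAd-gE3, 12.03, 11.96 and 12.17 with HDAd-0, and 12.09, 12.11 and 12.22 with PBS. It differed by -0.18 ± 0.0709 from HDAd-0 and by -0.27 ± 0.0709 from PBS (limma, adjusted p = 0.362 and 0.205). Both genes have a further probe set whose values are not given.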

How the data were processed

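Log2 signals of 45101 probe sets on 9 arrays were deposited by the authors; the submitters' processing notes name RMA; labelling used the FL-Ovation kit per the labels' protocols. As usually run, RMA subtracts background, equalises array distributions and summarises probes on the log2 scale, which removes a shift common to most genes; the array medians still differed slightly. The log2 scale was read from the values. Genes were named from the platform annotation (34945 probe sets with 1 gene, 932 with several, 9160 with none, 64 controls), with symbols from RefSeq GRCm38.p6 where matched. The brightest probe set stood for each of 18193 genes.

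Linear models over all 9 arrays were fitted with limma 3.58.1 (R 4.3.3), with 6 residual degrees of freedom, two-sided, adjusted by Benjamini-Hochberg with a threshold of 0.05, and tested on simulated data. With 3 arrays a group, exact permutation p-values end at 0.1. Nothing in the labels ties replicate numbers to a batch. p-values measure the spread between pools. The precision of every value is limited by 3 arrays a group. Figures used matplotlib 3.10.9.

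The members, pathway and marker lists were chosen with earlier results of these data known. Named genes are, per comparison, up to 6 members a direction with the smallest unadjusted p under 0.05, the 10 brightest, the 3 of widest range and a list with a known place in the lesion; others are named where a count or a probe set singles them out after their values were seen. The alternatives tried were median centring, renewed quantile normalization, dropping genes with a mean under 6, other probe sets for a gene, the replicate number as a block, weighted arrays, a variance trend with intensity, fits to just the compared groups, and each array left out. A covariate of 3′ minus 5′ control signal and leaving out 2 arrays together were added after seeing the data.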

Additional observations from a re-analysis of the deposited data

How the results depend on the processing

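No member passed an adjusted p of 0.05 under any alternative except array weights, where 3 did for HDAd-gE3 against PBS (Il1f9, Il18rap and Il10rb). The number of members at an unadjusted p under 0.05, which was 14, 14 and 5 for HDAd-gE3 against HDAd-0, HDAd-0 against PBS and HDAd-gE3 against PBS, moved by over 1.5 times in these cases. With the filter on dim genes, which tests fewer genes, it was 9 and 9 in the first 2. With the replicate block it was 9, 9 and 3. With the 3′ minus 5′ covariate it was 9 in the first and 9 in the third. It was 7 in the second when replicate 4 of HDAd-gE3 and replicate 5 of HDAd-0 were both left out. In the third it was 11 with array weights and 3 with an intensity trend. Leaving out each array gave 11 to 19, 7 to 14 and 4 to 9, and member medians of -0.13 to -0.0968, 0.072 to 0.108 and -0.0272 to -0.0098. Counts without an array or with another fit stand without the share of all genes under the same setting. Whether the members moved more than all genes there was not tested. Centring arrays on their medians gave 21, 16 and 7, with the median of all genes at -0.104, 0.0499 and -0.0543 and that of members at -0.161, 0.121 and -0.0489; centring moves every gene's difference by the same amount. Il10rb against HDAd-0 turned to 0.10 with the mean of its probe sets and to 0.37 with the most variable one, and against PBS to 0.0457 with the latter. For the other members with an unadjusted p under 0.05, counted per comparison, none of the 608 values from alternatives that kept the gene changed direction, with adjusted p between 0.0189 and 0.803. The filter on dim genes gave no value for 12 of these 31 cases, Il1f9 among them. Same-numbered arrays of different groups did not deviate together (correlations of -0.0465 to 0.0999), so the replicate block rests on a number only. The causes of these moves were not tested.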
